A study of Homo sapiens with 6 samples.

Results

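The genes described here encode the proteins of the mitochondrial ribosome. They were taken as every gene of the deposited table whose listed name is MRPL or MRPS followed by a number and at most 1 letter from A to C. The rule found 78 of the 58174 genes listed, of which 49 carry an MRPL symbol for the large subunit and 29 an MRPS symbol for the small subunit. The cells are labelled Huh-7, a permanent culture first grown out of a liver tumour of hepatocytes, and were transfected with a lipid reagent and taken 48 h later. In 3 samples the cells received a miR-27a-3p mimic, a synthetic RNA that imitates the mature microRNA, and in 3 samples a negative control RNA (NC). The labels name no other treatment and no genetic change, and nothing in them says that replicates were grown as separate cultures. The p-values therefore cover the spread among these 6 samples, and that spread may be purely technical.

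The mitochondrial ribosome translates the few messenger RNAs of mitochondrial DNA, all of which encode subunits of the respiratory chain and the ATP synthase. Its ribosomal RNAs are made in the organelle, while its proteins are encoded in the nucleus, made in the cytosol, imported and assembled onto those RNAs. Some of the proteins have a counterpart in bacterial ribosomes and others are specific to mitochondria. In liver and in liver tumours, as elsewhere, respiratory chain assembly needs the proteins this ribosome makes.

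A microRNA binds messenger RNAs mainly through its seed, bases 2 to 8, which are in capitals in the mature miR-27a-3p (RefSeq, GRCh38.p14, chr19:13836447-13836467, minus strand). The match in a 3′ untranslated region is called an 8mer (ACTGTGAA), a 7mer-m8 (ACTGTGA) or a 7mer-A1 (CTGTGAA). The sites below, read from GRCh38 with GENCODE 29 transcripts, have the match in capitals. MRPS25 is shown because it holds the one 8mer among the members, MRPS23 and MRPS27 because they hold a 7mer-m8 and were higher in mimic samples, and MRPL32 because it holds a 7mer-m8 and was lower. The sites lie at chr3:15048775-15048802 (MRPS25, minus strand), chr17:57838771-57838797 and chr17:57837422-57837448 (MRPS23, minus strand), chr5:72220111-72220137 (MRPS27, minus strand) and chr7:42936836-42936862 (MRPL32, plus strand).
miR-27a-3p: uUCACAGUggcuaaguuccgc
MRPS25 site: actacggcttgtACTGTGAAaaatgtgc
MRPS23 first site: ctctcctggtacACTGTGAggcaggtc
MRPS23 second site: tctcagagatccACTGTGAtttaatca
MRPS27 site: agtgcaagctgcACTGTGAgctggctg
MRPL32 site: aatttgaattacACTGTGAtaaaaaga

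Expression is given as FPKM, fragments scaled by transcript length and library total, so a value is relative to the rest of its library, and fewer cells of a type and less RNA per cell cannot be told apart. Depth per sample is unknown. The test took the 14439 genes that averaged 1 FPKM or more, and every one of the 78 members was among them. Over all genes tested the median log2 fold change was -0.29 for the values as deposited and became 0.01 under median-of-ratios scaling, which sets the typical gene to no change. Mitochondrially encoded genes took 14.6%, 24.3% and 38.9% of all FPKM in mimic samples 1, 2 and 3, against 16.9%, 18.4% and 32.8% in NC samples 1, 2 and 3. The hairpin gene MIR27A had 0, 0.398 and 0.474 FPKM in mimic samples, against 10.1, 11.2 and 8.94 FPKM in NC samples. MIR23AHG (listed as AC020916.1), looked at with it, had 15.2, 12.6 and 11.7 FPKM in mimic samples, against 174.6, 166.9 and 180.2 FPKM in NC samples. Mature microRNA was not measured, and the cause of these lower levels was not tested. All 15 hepatocyte markers looked for (among them ALB, AFP, APOA1, APOB and TTR) had means under 1 FPKM. The labelled cell type is therefore not borne out by its defining markers. Their sums were 0.950 to 1.32 FPKM in mimic samples and 1.24 to 2.17 FPKM in NC samples, but the markers did not share a direction. HNF4A had 0.838, 0.980 and 0.757 FPKM in mimic samples, against 0.243, 0.129 and 0.246 FPKM in NC samples. SERPINA1 had 0.0923, 0.276 and 0.0787 FPKM in mimic samples, against 1.49, 0.708 and 0.733 FPKM in NC samples. Of 15 markers of other cell types 13 averaged under 1 FPKM, and their sums were 286 to 405 FPKM in mimic samples and 218.5 to 296 FPKM in NC samples. The epithelial keratin KRT7 made up most of these sums, with 276 to 398 FPKM in mimic samples and 200 to 274 FPKM in NC samples. The fibroblast collagen COL1A1 had 6.66, 7.80 and 9.49 FPKM in mimic samples, against 17.8, 17.4 and 17.0 FPKM in NC samples, the opposite direction. The endothelial genes CDH5 and PECAM1 had 0.190 to 0.455 and 0.287 to 0.368 FPKM in mimic samples, against 0.886 to 2.08 and 0.534 to 0.808 FPKM in NC samples. The other endothelial gene looked for, VWF, overlapped, at 0 to 0.147 FPKM in mimic samples and 0 to 0.0524 FPKM in NC samples. The keratin KRT14 was lower, unlike KRT7, at 0 to 0.118 FPKM in mimic samples and 0.255 to 0.373 FPKM in NC samples. The part of other cell types in the results was not tested, and the line is named only as labelled.

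More mitochondrial ribosomal protein genes were called higher than lower in mimic samples, in every one of the 20 alternative fits too, while on the deposited scale the balance over all genes was the opposite. On the deposited scale 25 of the 78 members were called higher and 9 lower at a limma adjusted p under 0.05, and 44 were not called. The background was 12.0% of all genes higher and 39.6% lower, and 14% and 32.7% of the protein-coding genes tested. The members' median log2 fold change was 0.20, and 66 of the 78 lay above the median of all genes tested. MRPS34, MRPL4, MRPL12, MRPS2 and MRPS18A more than doubled their fitted value (log2 fold change over 1), and no member fell by that much.

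After median-of-ratios scaling 45 members were called higher and 2 lower, against a background of 26.9% higher and 27.4% lower, and the members' median was 0.51. Among protein-coding genes tested 31.8% were higher and 20.4% lower under this scaling, with a median of 0.13. The 25 members called higher on the deposited scale were all called higher under this scaling, while of the 9 called lower only MRPS25 and MRPS36 were still called. Called counts also depended on single libraries: 16 members were called higher without mimic sample 2 or without NC sample 1, and the number called lower was 4 without mimic sample 3, 3 without NC sample 1 and 5 without NC sample 2. In 12 members the call of higher was made in every one of the 20 alternative fits, namely MRPL4, MRPL12, MRPL20, MRPL27, MRPL37, MRPS2, MRPS7, MRPS10, MRPS18A, MRPS18B, MRPS23 and MRPS34. MRPS25 was the single member called lower in all 20.

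**Figure D1:**
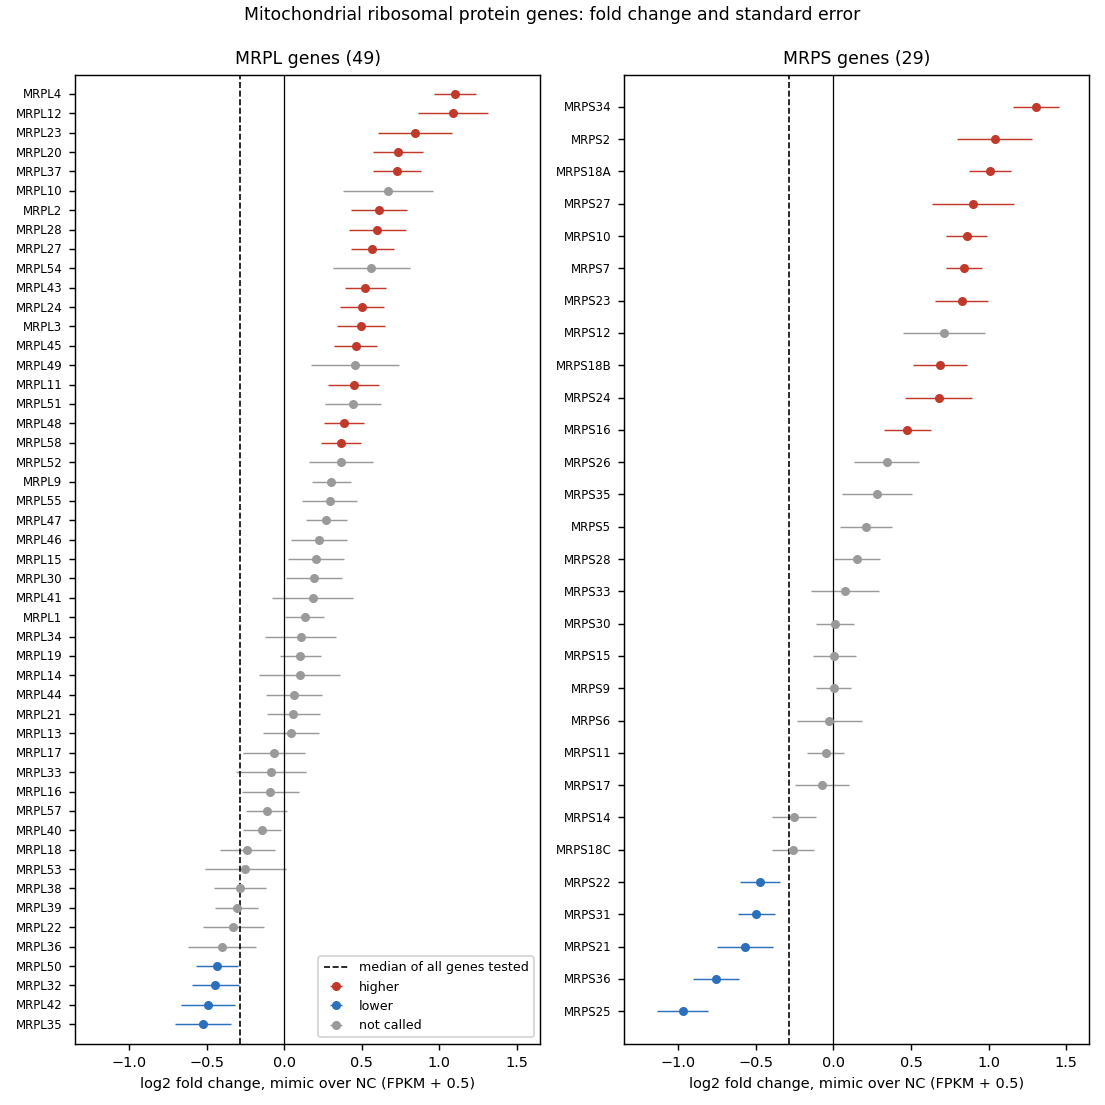
Log2 fold change, mimic over NC, on the log2(FPKM + 0.5) scale with its standard error for the 49 MRPL genes (left) and the 29 MRPS genes (right), sorted by size; red points were called higher, blue lower and grey not called, and the dashed line is the median of all genes tested at -0.29. Most points in both panels lie right of the dashed line, and MRPS34 at 1.31 and MRPS25 at -0.97 mark the ends.

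The values of single samples were also compared without a model. These are the same 6 samples on the same deposited scale, so the comparison is not a separate check of the calls. In 30 members all 3 mimic samples lay above all 3 NC samples, which is 38.5% of the members against 16.2% of all genes tested, and in 12 members all mimic samples lay below, 15.4% against 44.3%. Every called member was among these 42. The 5 members whose groups did not overlap upward without a call were MRPL1, MRPL9, MRPL47, MRPL51 and MRPS12, named after their values were seen. Within groups the members shared an order of samples: mimic sample 1 was the highest of its group in 53 members (67.9%, against 44.7% of all genes) and mimic sample 3 the lowest in 60 (76.9%, against 56.0% of all genes). In the control group NC sample 3 was the lowest in 48 members (61.5%, against 54.2% of all genes). Mimic sample 3 and NC sample 3 are the libraries with the largest mitochondrially encoded share, and the part of that share in this order was not tested.

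Among the large subunit genes, 15 of 49 were called higher and 4 lower, with a median log2 fold change of 0.20. MRPL4, which encodes a protein lining the exit tunnel for the new chain, had 51.4, 45.3 and 57.5 FPKM in mimic samples, against 22.7, 24.9 and 23.3 FPKM in NC samples. The groups lay far apart and the NC samples within about 2 FPKM of each other, and the log2 fold change was 1.10 (SE 0.14, limma adjusted p = 0.000355). MRPL12, the stalk protein that contacts the elongation factors and has also been found bound to the mitochondrial RNA polymerase, had 133, 84.7 and 80.2 FPKM in mimic samples, against 48.7, 52.3 and 36.3 FPKM in NC samples. Mimic sample 1 stood above the other two, and the log2 fold change was 1.09 (SE 0.23, limma adjusted p = 0.00458).

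MRPL37, a mitochondria-specific protein, had 81.5, 70.2 and 97.3 FPKM in mimic samples, against 47.5, 48.5 and 52.8 FPKM in NC samples. MRPL20, an RNA-binding protein with a bacterial counterpart, had 54.1, 49.6 and 43.1 FPKM in mimic samples, against 25.2, 34.7 and 28.2 FPKM in NC samples. MRPL27, whose bacterial counterpart reaches towards the peptidyl transferase centre, had 31.4, 34.4 and 31.4 FPKM in mimic samples, against 23.2, 23.7 and 18.5 FPKM in NC samples. None of these 3 genes had overlapping groups, and their log2 fold changes were 0.73, 0.73 and 0.57. MRPL43, a mitochondria-specific protein, averaged 48.7 ± 0.305 FPKM in mimic samples and 33.9 ± 3.86 FPKM in NC samples (SD, n = 3 each), and without NC sample 1 its limma adjusted p was 0.0562. MRPL23, a protein at the tunnel exit, averaged 59.8 ± 20.9 FPKM in mimic samples and 32.1 ± 4.58 FPKM in NC samples (SD, n = 3 each), with mimic sample 1 at 83.6 FPKM. Without NC sample 3 its limma adjusted p was 0.0586. Apart from MRPL24, the other 7 large subunit genes called higher had log2 fold changes between 0.37 (MRPL58, a release factor built into the ribosome) and 0.61 (MRPL2, a core protein by the peptidyl transferase centre), and each lost its call in at least 1 fit that left out a library.

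MRPL24, the member with the highest mean level, had 156, 145 and 121 FPKM in mimic samples, against 101, 98.9 and 95.5 FPKM in NC samples. Its log2 fold change was 0.50 (SE 0.14, limma adjusted p = 0.0187), and the adjusted p lay between 0.0532 and 0.065 when mimic sample 2 or any 1 NC sample was left out. MRPL33, the MRPL gene next in level, had 130, 91.3 and 73.0 FPKM in mimic samples, against 113, 110 and 83.3 FPKM in NC samples. Those groups overlapped fully and MRPL33 was not called. MRPL51, a mitochondria-specific protein, averaged 91.1 ± 16.2 FPKM in mimic samples and 66.8 ± 10.4 FPKM in NC samples (SD, n = 3 each), and its limma adjusted p of 0.0683 missed the threshold. At the low end MRPL1 averaged 6.47 ± 0.296 FPKM in mimic samples and 5.86 ± 0.355 FPKM in NC samples, and MRPL30 averaged 9.78 ± 2.43 FPKM in mimic samples and 8.35 ± 0.48 FPKM in NC samples (SD, n = 3 each). Neither was called on the deposited scale.

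The 4 large subunit genes called lower differed by less than MRPL4 and MRPL12. MRPL50, a mitochondria-specific protein, had 7.22, 7.45 and 6.81 FPKM in mimic samples, against 10.8, 10.3 and 8.52 FPKM in NC samples. MRPL32, whose precursor is cut to its mature form by the m-AAA protease of the inner membrane, had 31.9, 40.1 and 38.4 FPKM in mimic samples, against 46.9, 57.3 and 46.5 FPKM in NC samples. MRPL35 and MRPL42 averaged 16.6 ± 4.20 and 19.1 ± 4.47 FPKM in mimic samples, against 23.7 ± 1.00 and 26.6 ± 2.01 FPKM in NC samples (SD, n = 3 each). The log2 fold changes of MRPL50, MRPL32, MRPL35 and MRPL42 were -0.43, -0.44, -0.53 and -0.49. None of the 4 was called after median-of-ratios scaling, which put MRPL50, MRPL32 and MRPL42 at -0.13, -0.12 and -0.17. These 3 changed sign to 0.12, 0.07 and 0.16 after correction for GC content and length. That correction also recentred each sample over all genes, and the parts of recentring, GC and length in these shifts were not tested. Each of these calls was lost in several of the fits that leave out 1 sample, with log2 fold changes in those fits between -0.35 and -0.55. No large subunit gene was called lower without mimic sample 3 or without NC sample 1, 1 was without NC sample 2, and 2 were without mimic sample 1, mimic sample 2 or NC sample 3. The number called higher was 9 without mimic sample 2, NC sample 2 or NC sample 3, and 8 without NC sample 1.

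Among the small subunit symbols, 10 of 29 were called higher and 5 lower, with a median log2 fold change of 0.15. MRPS34, a mitochondria-specific protein whose loss destabilises the small subunit in patients, had the largest difference of all members, with 135, 108 and 102 FPKM in mimic samples, against 48.2, 47.2 and 42.5 FPKM in NC samples. The lowest mimic sample was more than double the highest NC sample, and the log2 fold change was 1.31 (SE 0.15, limma adjusted p = 0.000251). MRPS7, which organises the head of the small subunit, had 42.7, 41.5 and 40.3 FPKM in mimic samples, against 23.1, 22.7 and 23.0 FPKM in NC samples. Its samples were close together within groups, with an SD of 1.23 FPKM in mimic samples and 0.198 FPKM in NC samples, and the log2 fold change was 0.84 (SE 0.11, limma adjusted p = 0.000574). MRPS10, also a protein of the head, had 25.97, 28.1 and 22.6 FPKM in mimic samples, against 13.5, 14.6 and 13.4 FPKM in NC samples, a log2 fold change of 0.86.

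MRPS18A carries a small subunit symbol, but the structure of the human mitochondrial ribosome places it in the large subunit. It had 50.6, 47.1 and 43.1 FPKM in mimic samples, against 23.6, 25.0 and 20.5 FPKM in NC samples, with a log2 fold change of 1.01 (SE 0.14, limma adjusted p = 0.000521). Its paralog MRPS18B, which sits in the small subunit, had 86.9, 70.3 and 62.2 FPKM in mimic samples, against 44.9, 52.0 and 38.6 FPKM in NC samples, a log2 fold change of 0.69. The third paralog, MRPS18C, averaged 15.5 FPKM in mimic samples and 18.6 FPKM in NC samples and was not called, with a log2 fold change of -0.26. As deposited MRPS18A and MRPS18B were therefore called higher and no direction was called for MRPS18C, which median-of-ratios scaling put at 0.05. MRPS18C shares 1956 exonic bases with FAM175A on the opposite strand, whose log2 fold change was -0.54 and which was not called.

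MRPS2 and MRPS27 differed between groups with a wide spread in mimic samples. MRPS2, with a bacterial counterpart on the solvent side of the small subunit, had 43.8, 35.1 and 70.1 FPKM in mimic samples, against 23.7, 24.8 and 20.4 FPKM in NC samples, so mimic sample 3 was the highest. MRPS27, a pentatricopeptide repeat protein, had 47.2, 52.4 and 25.4 FPKM in mimic samples, against 21.5, 18.3 and 23.9 FPKM in NC samples, so mimic sample 3 was nearly as low as the controls. The MRPS27 call (log2 fold change 0.90, SE 0.27, limma adjusted p = 0.0222) was lost without mimic sample 1 (0.0754), mimic sample 2 (0.0790), NC sample 1 (0.0517) or NC sample 2 (0.0692), each value being the adjusted p. MRPS23, a mitochondria-specific protein at the lowest level of the small subunit symbols, had 9.05, 7.71 and 6.87 FPKM in mimic samples, against 4.60, 4.76 and 3.36 FPKM in NC samples. Its groups did not overlap, and the log2 fold change was 0.83.

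**Figure D2:**
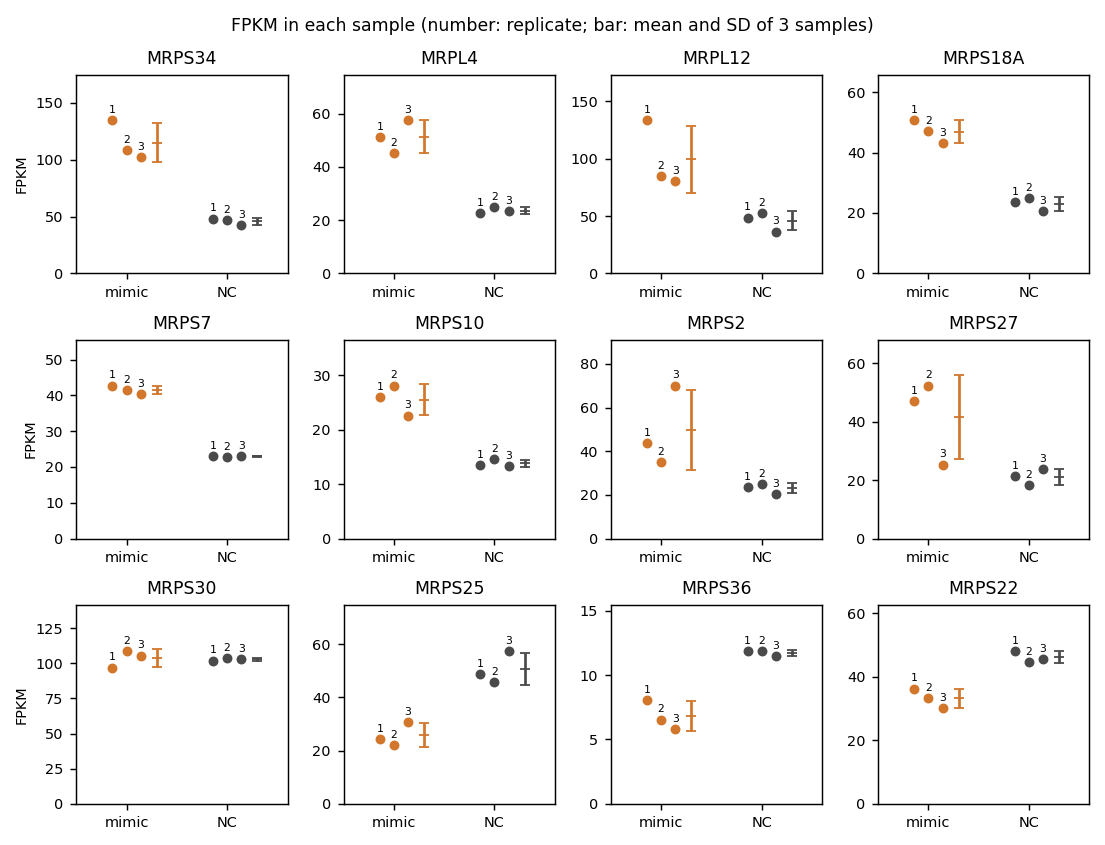
FPKM of 12 members in each sample, mimic left and NC right, with the replicate number above each point and a bar for the mean and SD of 3 samples; each axis starts at 0. MRPS34, MRPL4, MRPS18A, MRPS7 and MRPS10 show separated groups, MRPS2 and MRPS27 show mimic sample 3 apart from its group, MRPS30 shows overlapping groups near 100 FPKM, and MRPS25, MRPS36 and MRPS22 lie lower in mimic samples.

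MRPS25, a mitochondria-specific protein of the small subunit, was the member with the largest fall. It had 24.3, 22.1 and 30.8 FPKM in mimic samples, against 48.9, 45.6 and 57.6 FPKM in NC samples, with a log2 fold change of -0.97 (SE 0.16, limma adjusted p = 0.00165). After median-of-ratios scaling the log2 fold change was -0.65 (adjusted p = 0.0265) and after GC and length correction -0.68 (adjusted p = 0.0237), and the adjusted p lay between 0.00105 and 0.0278 over the 20 alternatives. Its 8mer starts at base 3651 of a 3′ untranslated region of 3923 bases. MRPS25 (chr3:15042460-15065335, minus strand) shares 1197 exonic bases with NR2C2, a nuclear receptor gene on the opposite strand, and the 28 bases printed above also lie within NR2C2 exons. NR2C2 had 10.7, 12.5 and 10.5 FPKM in mimic samples, against 26.1, 25.3 and 29.9 FPKM in NC samples. How the counting treated strands is not stated in the sources at hand, so reads of the pair cannot be told apart over those bases.

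MRPS36 bears a ribosomal symbol but is now placed in the alpha-ketoglutarate dehydrogenase complex of the citric acid cycle. It had 8.07, 6.54 and 5.79 FPKM in mimic samples, against 11.9, 11.9 and 11.5 FPKM in NC samples, a log2 fold change of -0.76 (SE 0.15, limma adjusted p = 0.00319). After GC and length correction its log2 fold change was -0.07 and it was not called. MRPS22, whose mutation causes a childhood mitochondrial disease, had 36.3, 33.2 and 30.1 FPKM in mimic samples, against 48.2, 44.7 and 45.7 FPKM in NC samples. MRPS31 averaged 10.6 ± 0.382 FPKM in mimic samples and 15.1 ± 0.525 FPKM in NC samples, and MRPS21, a small protein with a bacterial counterpart, averaged 67.1 ± 15.9 FPKM in mimic samples and 98.5 ± 6.71 FPKM in NC samples (SD, n = 3 each). The log2 fold changes of MRPS22, MRPS31 and MRPS21 were -0.47, -0.50 and -0.57, none was called after median-of-ratios scaling, and MRPS31 changed sign to 0.04 after GC and length correction. MRPS22 lost its call without NC sample 1 (adjusted p = 0.0643), and MRPS21 without mimic sample 2, mimic sample 3, NC sample 1 or NC sample 2 (adjusted p between 0.0700 and 0.0928). Without NC sample 1 the number of small subunit symbols called lower was 3.

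The most abundant small subunit symbols did not move together. MRPS30, which the structure places in the large subunit, had 97.0, 109 and 106 FPKM in mimic samples, against 102, 104 and 103 FPKM in NC samples, and MRPS15 had 110, 93.2 and 87.6 FPKM in mimic samples, against 96.7, 91.6 and 101 FPKM in NC samples. The groups overlapped in both genes, and both log2 fold changes were within 0.01 of 0 as deposited. With median-of-ratios scaling they were 0.33 and 0.33 and both genes were called higher, so whether these genes differed depended on the scale. MRPS24, a protein with a bacterial counterpart, had 131, 90.6 and 88.5 FPKM in mimic samples, against 75.1, 68.7 and 49.4 FPKM in NC samples. Its call (log2 fold change 0.68, limma adjusted p = 0.0282) was lost without mimic sample 1 (0.0597), mimic sample 2 (0.0502) or NC sample 3 (0.0859), each value being the adjusted p.

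Summed over their genes, both subunits were higher in mimic samples, and the ratio between them overlapped. The MRPL genes summed to 2269, 1871 and 1711 FPKM in mimic samples 1, 2 and 3, against 1686, 1636 and 1495 FPKM in NC samples 1, 2 and 3. The MRPS genes summed to 1334, 1181 and 1085 FPKM in mimic samples, against 1038, 1013 and 940.5 FPKM in NC samples. Neither pair of groups overlapped, with mean sums 1.22 times the NC mean for MRPL and 1.20 times for MRPS. The ratio of the large to the small subunit sum was 1.70, 1.59 and 1.58 in mimic samples and 1.62, 1.62 and 1.59 in NC samples. These ranges overlapped, with means of 1.62 ± 0.0697 in mimic samples and 1.61 ± 0.0178 in NC samples (SD, n = 3 each), so a difference between subunits was within the spread of samples. With MRPS18A and MRPS30 counted in the large subunit and MRPS36 left out, the ratio was 2.01 ± 0.033 in mimic samples and 2.01 ± 0.00776 in NC samples (SD, n = 3 each).

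As a share of the FPKM of nuclear genes, which leaves the mitochondrially encoded share out, the members took 0.930%, 0.864% and 0.858% in mimic samples, against 0.727%, 0.723% and 0.717% in NC samples. The 3 control libraries agreed to 0.01 percentage points on that scale, and the lowest mimic library stood above the highest control library. On the same scale mimic sample 1 was above mimic samples 2 and 3, which lay close together.

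**Figure D3:**
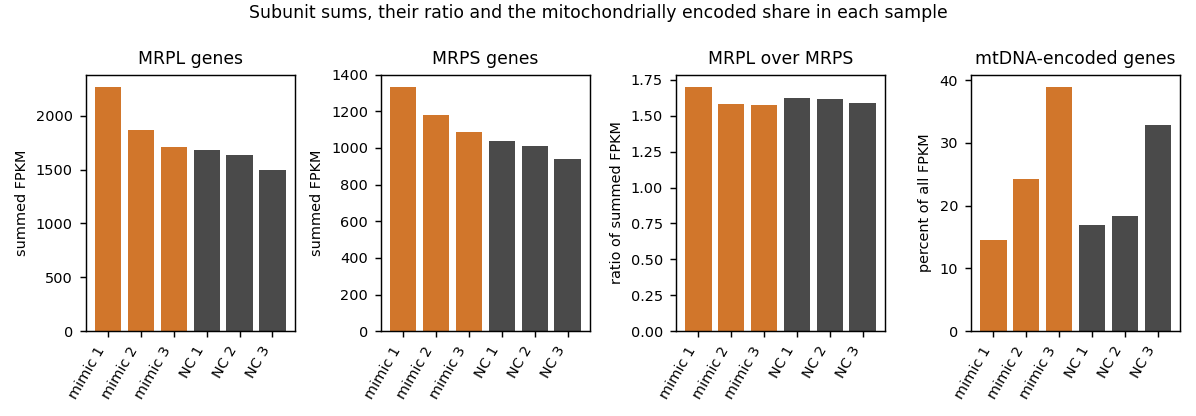
Summed FPKM of the MRPL and of the MRPS genes, their ratio, and the percent of all FPKM in mitochondrially encoded genes in each sample, mimic bars (orange) left of NC bars (grey); all axes start at 0. The sums are 1085 to 2269 FPKM in mimic samples and 940.5 to 1686 FPKM in NC samples, the ratio stays between 1.58 and 1.70, and the mitochondrially encoded share is largest in replicate 3 of both groups.

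The calls were spread over the structural classes. Of the 30 large subunit proteins with a bacterial counterpart 10 were called higher and 2 lower, and of the 21 specific to mitochondria 6 were higher and 2 lower. In the small subunit, 5 of 16 with a bacterial counterpart were higher and 1 lower, and 4 of 10 specific to mitochondria were higher and 3 lower. The medians of the log2 fold change in these 4 classes were 0.20, 0.23, 0.08 and 0.31. In every class the share called higher was above the 12.0% of all genes and the share called lower was below the 39.6%.

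The members' fold changes differed between transcripts of low and of high GC content. Transcripts of the 25 members called higher had a median GC content of 52.2%, those of the 9 called lower 39.7% and those not called 47.7%. Of the 13 members under 40% GC 6 were called lower and the others were not called, with a median log2 fold change of -0.26, whereas of the 11 members at 60% or more 6 were called higher and the others were not called, with a median of 0.60. The members' medians did not climb in order between those ends, at 0.19, 0.00, 0.46 and 0.30 in the bins that start at 40%, 45%, 50% and 55%. The medians of protein-coding genes climbed at each step, at -0.49 under 40% GC, -0.32, -0.14, -0.04 and 0.05 in the same 4 bins and 0.12 at 60% or more, and the members' median lay above them in all 6 bins. When GC content and transcript length were fitted over all genes and removed, 47 members were called higher and 1 lower. The background was 26.6% of all genes higher and 23.4% lower, and 30% and 19.3% of protein-coding genes tested. This step also recentred each sample, and the median log2 fold change of all genes became 0.05. The median log2 fold change was then 0.61 for MRPL and 0.48 for MRPS genes. All 25 members called higher on the deposited scale were also called higher after this correction, and MRPS25 was the one still called lower.

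**Figure D4:**
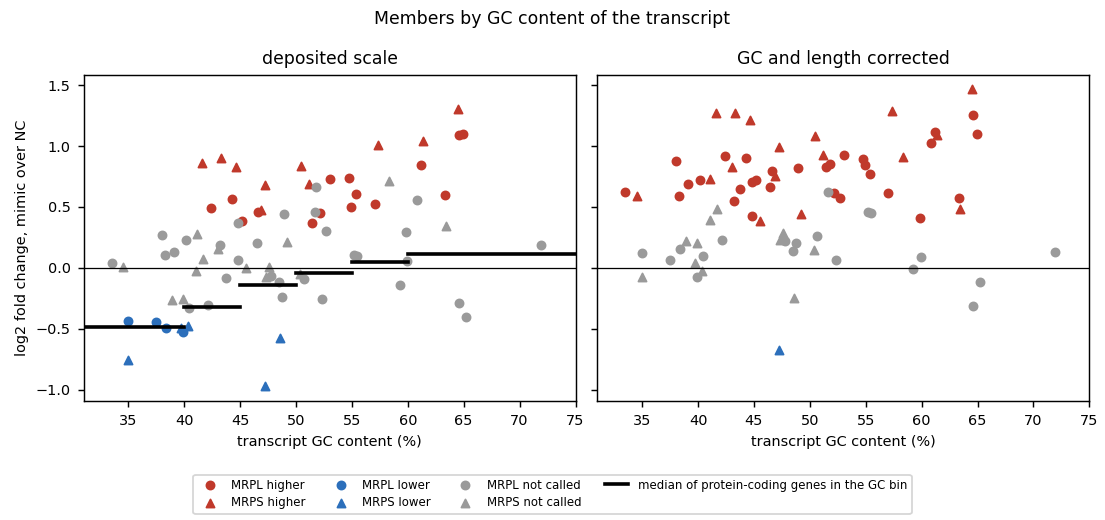
Log2 fold change, mimic over NC, against the GC content of the transcript for each member (circles MRPL, triangles MRPS; red called higher, blue lower, grey not called) on the deposited scale (left) and after GC and length correction (right); black bars are medians of protein-coding genes in GC bins. On the left the bars climb from -0.49 to 0.12 and most members lie above the bar of their bin, and on the right 47 points are called higher and 1 lower.

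Seed matches were rarer in the members than in all genes. An 8mer, 7mer-m8 or 7mer-A1 was found in 15 of the 78 members (19.2%), against 31.6% of the 11521 tested genes with an annotated 3′ untranslated region. The members' longest annotated 3′ untranslated regions were shorter, with a median of 592.5 bases, against 1596 bases for all genes searched. The single 8mer belonged to MRPS25, which was lower, and among the 9 members with a 7mer-m8 4 were called higher and 2 lower. The 4 were MRPS23, which holds both sites printed above, MRPS27, MRPL45 and MRPS16, and the 2 were MRPL32 and MRPL42. Of the 5 members with a 7mer-A1 1 was called higher (MRPL43) and the others were not called. The 63 members without a match had 20 called higher and 6 lower, with a median log2 fold change of 0.20, and the 15 with a match had a median of 0.19. A match is a description of the sequence and not evidence of binding.

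Many members share promoter motifs. RefSeq promoters (GRCh38.p14), 250 bases before to 50 after an annotated start, were found for 69 members and searched on both strands. The ETS motif CCGGAAG, which the GABP factor reads, was in 30 of them (43.5%), against 12.2% of the 27305 genes with a promoter. The YY1 motif AAGATGGCG was in 13 (18.8%), against 2.14%, and the NRF1 motif TGCGCATG in 5 (7.25%), against 2.57%. This background was not limited to the genes tested, whereas every member was tested, so the 2 sets are unlike in expression. Of the 30 members with the ETS motif 12 were called higher and 3 lower, and of the 39 without it 11 were called higher and 4 lower, so both groups held calls in both directions. Members with the YY1 motif had 4 of 13 called higher and 3 lower, and those without it 19 of 56 higher and 4 lower. The median log2 fold changes of these 2 groups were 0.01 and 0.24, and their median transcript GC contents 41.6% and 48.7%. Of the 5 members with the NRF1 motif 1 was called higher and 1 lower. Over all genes tested 12.0% were called higher and 39.6% lower. The promoters of MRPS10 (chr6:42217812-42218111, minus strand), MRPS18A (chr6:43687742-43688041, minus strand) and MRPS34 (chr16:1773085-1773384, minus strand) are shown with motifs in capitals. They were chosen because these genes were among the 5 members with the smallest p and hold the ETS motif. MRPS10 and MRPS18A also hold the YY1 motif, and MRPS34 holds the ETS motif 3 times, on the opposite strand. The others of the 5, MRPL4 and MRPS7, hold none of these motifs in their listed promoters.
MRPS10 promoter: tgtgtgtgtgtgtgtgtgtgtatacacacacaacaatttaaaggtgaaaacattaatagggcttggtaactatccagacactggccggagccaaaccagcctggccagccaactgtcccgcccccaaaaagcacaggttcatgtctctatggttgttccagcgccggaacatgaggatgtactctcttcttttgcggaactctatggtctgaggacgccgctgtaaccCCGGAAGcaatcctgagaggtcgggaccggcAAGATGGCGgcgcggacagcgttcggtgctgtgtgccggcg
MRPS18A promoter: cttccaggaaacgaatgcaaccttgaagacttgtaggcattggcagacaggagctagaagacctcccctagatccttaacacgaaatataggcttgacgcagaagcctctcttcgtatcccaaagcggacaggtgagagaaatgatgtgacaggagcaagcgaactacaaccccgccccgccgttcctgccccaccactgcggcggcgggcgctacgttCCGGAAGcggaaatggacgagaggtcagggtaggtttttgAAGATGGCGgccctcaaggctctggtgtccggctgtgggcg
MRPS34 promoter: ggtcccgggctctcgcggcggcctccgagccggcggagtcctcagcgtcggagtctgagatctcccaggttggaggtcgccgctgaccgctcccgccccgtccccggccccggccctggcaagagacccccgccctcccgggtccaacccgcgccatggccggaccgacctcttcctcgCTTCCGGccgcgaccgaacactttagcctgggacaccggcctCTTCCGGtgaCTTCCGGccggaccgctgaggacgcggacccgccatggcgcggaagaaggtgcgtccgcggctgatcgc

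The members are scattered over 21 chromosomes, and 31 of them share exonic bases with another gene that averaged at least 1 FPKM, 13 of the 34 called members among these. MRPL37 shares 33 bases with SSBP3 and 140 with CYB5RL, and MRPS7 shares 146 with MIF4GD and 213 with GGA3, all on the opposite strand. The log2 fold changes of SSBP3, CYB5RL, MIF4GD and GGA3 were 0.26, -0.43, 0.04 and -0.49, below those of MRPL37 and MRPS7. MRPL43 shares 149 with TWNK, MRPL51 486 with NCAPD2, MRPS2 104 with C9orf116, MRPS22 86 with COPB2 and MRPL32 24 with PSMA2, on the opposite strand, and the log2 fold changes of these partners were 0.57, 0.37, 0.40, -0.06 and 0.69, none of them called. MRPL33 shares 324 with BABAM2 on its own strand, and BABAM2 was called higher (log2 fold change 0.95, limma adjusted p = 0.000523). MRPL20 shares 139 on the opposite strand with AL391244.1, which was also called higher (log2 fold change 0.79, limma adjusted p = 0.0197). On the opposite strand MRPS27 shares 190 exonic bases with PTCD2, whose log2 fold change was -1.28, and MRPL23 shares 85 with MRPL23-AS1, whose log2 fold change was -1.78. In the pairs of MRPS27 and MRPL23 the member was higher and the partner lower. Pseudogenes named for members number 67, and 3 of them averaged at least 1 FPKM. They are MRPL45P2, MRPS31P4 and MRPS31P5, so the levels of MRPL45 and MRPS31 are uncertain where reads fit both copies.

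Proteins of the mitochondrial ribosome that carry other symbols were also called in both directions. GADD45GIP1, a large subunit protein, had 99.5, 88.9 and 84.1 FPKM in mimic samples, against 60.4, 59.1 and 49.4 FPKM in NC samples (log2 fold change 0.69, limma adjusted p = 0.00421). AURKAIP1, of the small subunit, had 51.2, 36.3 and 31.5 FPKM in mimic samples, against 29.01, 24.8 and 21.3 FPKM in NC samples (log2 fold change 0.63). PTCD3, a pentatricopeptide repeat protein of the small subunit, had 19.7, 21.0 and 16.8 FPKM in mimic samples, against 41.3, 37.1 and 39.4 FPKM in NC samples, with a log2 fold change of -1.02 (SE 0.13, limma adjusted p = 0.00047), and it holds a 7mer-m8. PTCD3 was also called lower after median-of-ratios scaling and after GC and length correction. DAP3 and CHCHD1, also small subunit proteins, were not called, with log2 fold changes of 0.07 and -0.49.

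Factors that build or run the mitochondrial ribosome were called in both directions. Of 30 assembly factors 6 were called higher (20%, against 12.0% of all genes) and 5 lower (16.7%, against 39.6%), with a median log2 fold change of -0.04. After median-of-ratios scaling 12 were higher (40%, against 26.9%) and 2 lower (6.67%, against 27.4%). The pseudouridine synthase RPUSD3 averaged 30.9 ± 2.64 FPKM in mimic samples and 19.3 ± 3.68 FPKM in NC samples, and the GTPase GTPBP6 averaged 16.6 ± 2.25 FPKM in mimic samples and 10.4 ± 1.03 FPKM in NC samples (SD, n = 3 each). METTL15, which methylates the small ribosomal RNA, averaged 1.505 ± 0.193 FPKM in mimic samples and 4.32 ± 0.771 FPKM in NC samples (SD, n = 3 each). Without NC sample 2 the number of assembly factors called lower was 3. Of 17 translation factors 1 was called higher (5.88%, against 12.0% of all genes) and 5 lower (29.4%, against 39.6% of all genes). The 1 was the translational activator TACO1 at 0.86. Among the 5 were the release factor family member MTRF1 at -0.97 and MTRES1 (listed as C6orf203) at -0.84, all log2 fold changes. Leaving out any single NC sample brought the 5 to 3, and without NC sample 3 TACO1 was not called. After median-of-ratios scaling 4 translation factors were higher and 2 lower.

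Genes that transcribe mitochondrial DNA and known regulators of the members were mixed. TFB2M, which opens the mitochondrial promoter with the RNA polymerase, averaged 15.04 ± 1.76 FPKM in mimic samples and 9.93 ± 0.454 FPKM in NC samples (log2 fold change 0.57, limma adjusted p = 0.00839). TFAM and POLRMT, the packaging factor and the polymerase, had log2 fold changes of 0.28 and 0.42 and were not called as deposited. Median-of-ratios scaling brought both past the threshold at 0.58 and 0.74. With GC content and length corrected TFAM was called higher (0.82) and POLRMT was not called (0.34). TEFM and MTERF1 were called lower at -0.43 and -1.0, and TEFM was not called after median-of-ratios scaling and neither gene after GC and length correction. Of 8 regulators tested 3 were called lower with the values as deposited (37.5%, near the 39.6% of all genes) and the other 5 were not called. The 3 were the coactivator PPARGC1A, with 2.82, 3.85 and 4.05 FPKM in mimic samples against 8.60, 8.73 and 9.13 FPKM in NC samples, GABPA (log2 fold change -0.51) and NRF1 (log2 fold change -0.43). After median-of-ratios scaling GABPA and NRF1 were not called and PPARGC1A still was. YY1 and MYC were not called, with log2 fold changes of -0.55 and -0.36, and YY1 had 9.17 FPKM in mimic sample 3 against 23.8 and 24.7 FPKM in mimic samples 1 and 2. GABPB1, ESRRA and PPRC1 were not called, with log2 fold changes of -0.10, 0.12 and -0.33, and PPARGC1B averaged under 1 FPKM and was not tested.

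The ribosomal RNAs around which the members assemble had lower means in mimic samples. The libraries were prepared with an mRNA kit, and how fully it captured these RNAs was not measured, so their FPKM may not follow their amount. MT-RNR1, the small subunit RNA, had 555, 718 and 799 FPKM in mimic samples, against 1178, 1002 and 1395 FPKM in NC samples, with a log2 fold change of -0.79 (limma adjusted p = 0.0136), and it was not called after median-of-ratios scaling or GC and length correction. MT-RNR2, the large subunit RNA, had 1940, 2993 and 3936 FPKM in mimic samples, against 3786, 3734 and 6480 FPKM in NC samples, and was not called. After quantile normalization, which gives every sample the same distribution of values, both were called lower, with a median log2 fold change of -1.03. In both groups MT-RNR2 was highest in sample 3, the library with the largest mitochondrially encoded share.

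On the deposited scale other large sets of nuclear genes for ribosomes and mitochondria also had more genes called higher than lower. Of 79 cytosolic ribosomal protein genes 13 were called higher (16.5%) and 2 lower, with a median log2 fold change of 0.14, and of 78 nuclear respiratory chain genes 13 were higher (16.7%) and 6 lower, with a median of -0.00. Among the members 32.1% were called higher and 11.5% lower. After median-of-ratios scaling the counts were 35 and 2 for the cytosolic set, 30 and 2 for the respiratory chain set and 45 and 2 for the members, with medians of 0.46, 0.32 and 0.51. With GC content and length corrected, the counts in the same order were 37 and 1, 38 and 0, and 47 and 1. After quantile normalization they were 18 and 11, 18 and 7, and 32 and 5, with medians of -0.00, 0.01 and 0.31, against a background of 24.9% higher and 22.8% lower. Differences between these lists were not tested. RPL24 and RPSA were higher among the cytosolic genes (log2 fold changes 0.92 and 1.23) and RPS19 lower (-1.84), while NDUFA11 and ATP5PB (listed as ATP5F1) were higher among the respiratory chain genes (1.13 and 1.37) and NDUFB1 lower (-0.87). Without mimic sample 1 more genes were called lower than higher in both sets. The counts were 10 higher and 16 lower of the cytosolic genes and 10 higher and 17 lower of the respiratory chain genes. Over all 14439 genes tested that fit called 1549 higher and 5732 lower. In the cytosolic set 8, 7 and 4 genes were called higher without mimic sample 2, NC sample 1 and NC sample 3, and 1 was called lower without mimic sample 2. In the respiratory chain set 7 were called higher without mimic sample 2 or NC sample 3, and 3 were called lower without NC sample 1 or NC sample 2.

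**Figure D5:**
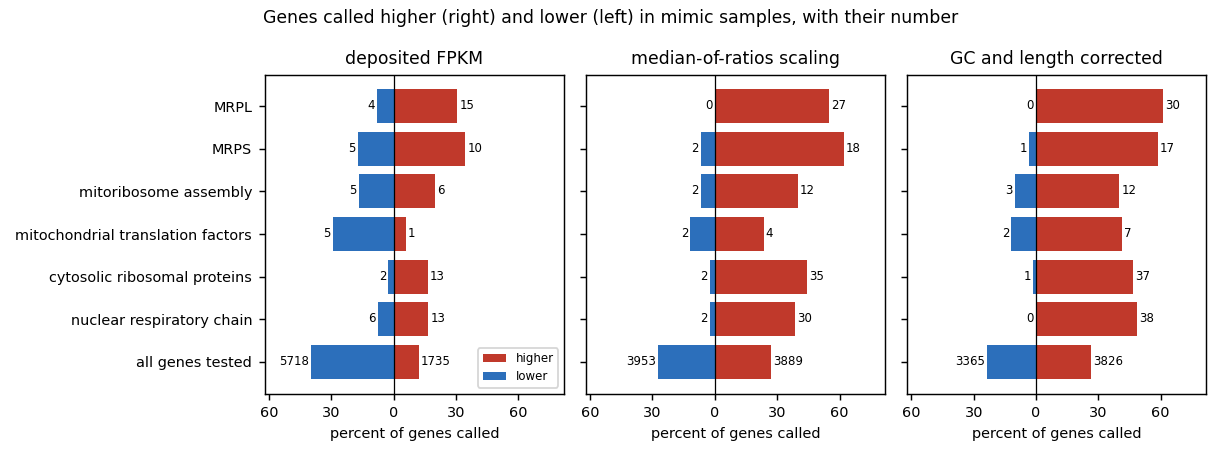
Percent of genes called higher (right, red) and lower (left, blue) in mimic over NC samples for the MRPL and MRPS genes, 4 related lists and all genes tested, for FPKM as deposited, after median-of-ratios scaling and after GC and length correction; numbers give the genes called. MRPL has 15 higher and 4 lower as deposited and 27 and 0 after median-of-ratios scaling, and all genes tested have 1735 and 5718 as deposited and 3889 and 3953 after that scaling.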

How the data were processed

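Per the labels' protocols, libraries were prepared from Trizol-extracted RNA with an mRNA kit. The authors deposited FPKM for 58174 genes in each of 6 samples, and the 6 single-sample tables hold the same values as the table of the whole series. The submitters' processing notes name FastQC, HISAT2 and hg38. Which tool produced FPKM, with which strand setting and gene annotation, was not given in the sources used here. FPKM keeps no read counts, so no counting interval is given.

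Groups follow the treatment label. The 14439 genes averaging 1 FPKM or more were tested with limma-trend and robust moderation (limma 3.58.1, R 4.3.3) on log2(FPKM + 0.5), with no covariates and Benjamini-Hochberg adjustment over all genes tested at 0.05. Log2 fold changes are mimic over NC on that scale, which understates changes of low genes. The step was tested on simulated data. Median-of-ratios scaling and a correction for GC content and length (mgcv 1.9.3) were run as alternatives among 20. The correction fitted each sample's deviations from the gene means smoothly on GC content and log2 length and removed the fit, which also recentres each sample. The limma test was then run on the corrected values. GC content, length, exons and untranslated regions came from GENCODE 29, which matched all 78 members, and promoters and the microRNA from RefSeq.

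Named members were up to 8 per subunit and direction with the smallest p among those called, and the 3 highest and 3 lowest in mean level per subunit. From related lists up to 3 called genes with the smallest p were named, and every gene of lists of 10 or fewer. The members and lists were chosen with earlier results of these data known. Structural classes and related lists follow textbook knowledge.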

Additional observations from a re-analysis of the deposited data

How the results depend on the processing

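Counts of called genes are given as higher and lower. For all genes they were 1735 and 5718 as deposited, 3889 and 3953 after median-of-ratios scaling, 3963 and 3903 after TMM scaling, 3592 and 3289 after quantile normalization and 3826 and 3365 with GC content and length corrected. Testing every gene of nonzero mean gave 1530 and 8755, and a minimum mean of 5 FPKM gave 1438 and 2916. For the 78 members, against 25 and 9 as deposited, they were 45 and 2 after median-of-ratios or TMM scaling. Quantile normalization gave 32 and 5, GC and length correction 47 and 1, and testing every gene of nonzero mean 16 and 5. For MRPL, against 15 and 4, they were 27 and 0 after median-of-ratios or TMM scaling. In these genes quantile normalization gave 20 and 1, GC and length correction 30 and 0, and testing every gene of nonzero mean 9 and 1. The 0 MRPL genes called lower were also 0 at an unadjusted limma p under 0.05, for median-of-ratios scaling and for the GC and length correction. For MRPS, against 10 and 5, they were 18 and 2 after median-of-ratios or TMM scaling, and 17 and 1 with GC content and length corrected. The median log2 fold changes of MRPL and MRPS were 0.52 and 0.47 after median-of-ratios scaling, 0.54 and 0.48 after TMM scaling, and 0.61 and 0.48 with GC content and length corrected. The cause was not tested, except that testing every gene of nonzero mean adds rows to the adjustment.

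Leaving out 1 replicate gave 16 to 25 members called higher and 3 to 7 lower, 8 to 14 and 0 to 2 of MRPL, and 7 to 11 and 3 to 5 of MRPS. All genes gave 1256 to 1822 higher and 4695 to 5732 lower. The medians lay between 0.11 and 0.34 for MRPL and between 0.06 and 0.26 for MRPS, and the ratio of the subunit ratios (mimic over NC, 1.01) between 0.98 and 1.02. Without replicate 3 of both groups 4 members, 1 MRPL and 3 MRPS genes were called lower.

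Whether replicate numbers pair the samples was not settled by their values. The correlations of same-numbered deviations over genes were 0.177, -0.047 and 0.223 for numbers 1, 2 and 3. Pairs of unlike numbers lay between -0.281 (mimic sample 1 with NC sample 3) and 0.126 (mimic sample 1 with NC sample 2). Numbers 1 and 3 therefore stood above every unlike pair, and number 2 did not. With the replicate block 2117 genes were called higher and 5994 lower, and 29 and 9 members, 18 and 4 of MRPL and 11 and 5 of MRPS, while the cytosolic set had 21 and 4 and the respiratory chain set 18 and 14. With the block and median-of-ratios scaling, 3990 genes, 49 members, 32 MRPL and 17 MRPS genes were higher, and 2 members, 0 MRPL and 2 MRPS genes lower, with medians of 0.52 and 0.47. With the block plus the correction for GC content and length, 3945 genes, 48 members, 31 MRPL and 17 MRPS genes were higher, and 3396 genes, 1 member, 0 MRPL and 1 MRPS gene lower, with medians of 0.61 and 0.48.

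Over the 20 alternatives 640 log2 fold changes of single named members were recomputed. Of these 518 kept direction and side of the threshold, 85 lost the call, 27 gained one, 2 uncalled values changed sign and were called, and 8 reversed. The 8 are MRPL50 (0.12), MRPL32 (0.066), MRPL42 (0.16) and MRPS31 (0.043), each once GC content and length were corrected, without and with the block. That correction also recentred each sample. Depth is unknown, so what depth limits could not be computed.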
